A study of Pinus elliottii with 16 samples.

Results

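Stimulant paste was compared with wounding alone in the vascular cambium of adult slash pine (Pinus elliottii var. elliottii) on day 15 after treatment. The comparison took the 4 paste libraries and the 4 control libraries of that day, 8 of the 16 libraries in the series. In the paste group the bark was stripped and a streak of paste was laid on the fresh wound. The paste held 3% Ethrel, a form of ethephon that releases the plant hormone ethylene, and 20% sulfuric acid in an inert carrier of rice husk powder. The control group had the bark stripped and no paste. Both groups came from 16-year-old trees of a commercial stand that had been tapped every fortnight for a year with conventional paste, so the controls carried that history too. No group received the acid or the ethephon alone. Tissue was taken slightly above the wound. The labels call the libraries biological replicates and speak of 4 trees picked at random but do not say which library came from which tree, so p-values here measure the spread between these libraries.

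The vascular cambium is the dividing layer between bark and wood. It forms new xylem and phloem, and in pines also the resin ducts, whose lining cells make and secrete the terpenes of resin. Ethylene and wounding are both known to act on cambial growth and on the formation of resin ducts in conifers, and acid pastes are used in tapping to keep resin flowing from the cut. Day 15 is close to the end of a fortnightly tapping interval, and the comparison asked what set paste-treated cambium apart from merely wounded cambium at that time.

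The files held 8949 features, of which 5869 had identifiers beginning PITA_, 1618 identifiers beginning PITAhm_ and 1462 the name of a transcript. The files do not pair them with gene names or descriptions. Terpene, ethylene, jasmonate, lignin and defence gene lists could therefore not be formed, and the tissue label could not be checked against cambium markers. Levels are normalized fragment counts: the authors estimated how many fragments came from each feature and scaled every library by its own size factor. The 8 libraries held 3324244 to 5176030 estimated fragments each. A feature was tested where its normalized count was at least 10 in at least 4 of the 8 libraries, which left 5461. Changes are differences of mean log2(normalized count + 1), paste minus control, on a scale that understates the change of low features. In RNA from whole tissue, fewer cells of a type and less RNA per cell cannot be told apart.

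Paste day 15 replicate 3 stood apart from the other 7. In a principal component analysis of the log2 values it scored 123 on the first component, which took 54% of the variance, while the other paste libraries scored 21.9, -26.4 and -20.3 and the controls -43.8 to 9.78. Its correlation across features was 0.722 to 0.835 with the other paste libraries of day 15 and 0.673 to 0.824 with the controls, against 0.832 to 0.949 with the paste libraries of day 5. Paste day 15 replicate 1 was nearly identical to paste day 5 replicate 1. Their correlation was 0.988, and they differed by 1.71 times what counting noise gives, whereas the next nearest of the 120 pairs in the series differed by 10.8 times. The files do not settle whether these 2 are 1 library deposited under 2 labels, nor whether replicate 3 of day 15 carries the label of another day. Each was kept under its own label, so the paste group of day 15 may hold fewer than 4 independent libraries of that day, and values at day 5 may not be independent of those at day 15. Paste replicates 2 and 4 of day 15 lay among the controls. Without replicate 3, paste and control libraries correlated at a median of 0.909 and the paste libraries among themselves at a median of 0.908.

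**Figure D1:**
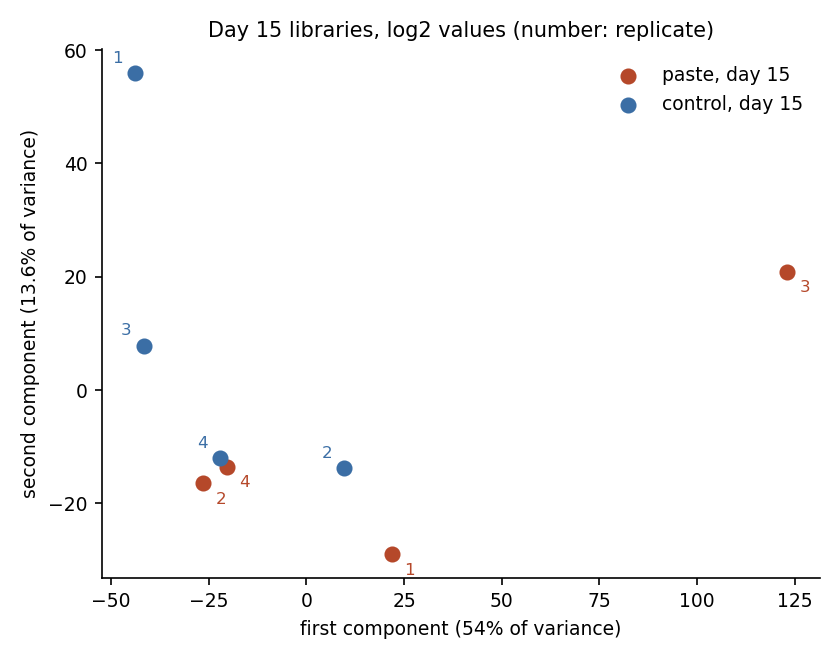
First against second principal component of log2(normalized count + 1) over 5461 features in the 8 libraries of day 15, with the replicate number beside each point. Paste replicate 3 lies at 123 on the horizontal axis and control replicate 1 highest on the vertical axis at 55.9, while paste replicates 2 and 4 lie among the controls.

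No feature passed the test for a difference between paste and control at day 15. Of the 5461 features, 0 had a Benjamini-Hochberg adjusted p below 0.05 in limma fitted on these 8 libraries, a background of 0%, and the smallest adjusted p was 0.593. An unadjusted p below 0.05 was reached by 281 features, 5.15% of those tested. In this fit that is about the share of 0.05 expected if no feature differed, but the count depended on the fit. It was 472 with library quality weights, 500 with all 16 libraries and 172 with replicate number fitted as a block. With 1 library left out it was 179 to 540. The 281 divided into 112 higher with paste, 2.05%, and 169 lower, 3.09%. When every library was rescaled to the same total, the division became 134 higher and 116 lower. The count of adjusted calls was 0 in each of the 20 alternative fits as well, among them limma with library quality weights, the fit that used all 16 libraries, and the fits without paste replicate 1, without paste replicate 3 and without both.

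The estimates bound the change of some features and leave that of many wide. The median log2 change was -0.03, with -1.27 at the 5th percentile and 1.13 at the 95th. The median standard error was 0.40, and the 95% confidence interval of a typical feature reached 0.93 to either side of its estimate, or 1.90-fold. For 1891 features, 34.6%, the whole interval lay within 2-fold in either direction. For 1117, 20.5%, the interval reached beyond 2-fold in both directions. Estimates beyond 2-fold numbered 319 higher and 419 lower with paste, and none of them passed. With 4 libraries a group, the count of 0 therefore does not show that the treatments were alike.

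Features in which all 4 paste libraries lay on 1 side of all 4 controls made up 3.57% of those tested. If paste made no difference, a feature would separate in 1 direction or the other with a chance of 0.0286. The share seen was not far above that. Features separated in this way numbered 100 higher with paste, 1.83%, and 95 lower, 1.74%. The higher ones were modest in size. Their fold change ran from 1.21 to 67.4 with a median of 1.56, and 24 of the 100 went beyond 2-fold and 6 beyond 8-fold. The lower ones ran from 1.15-fold to 29.3-fold with a median of 2-fold, and 47 of the 95 went beyond 2-fold and 7 beyond 8-fold. Of the 195, 57 higher and 69 lower features had an unadjusted p below 0.05. Without paste replicate 3 the groups did not overlap in 199 higher and 206 lower of the 5461 features, and without paste replicate 1 in 144 and 146. With both left out there were 394 of each. Fewer libraries leave more room for groups that do not overlap, so these counts do not compare in size with the first. The chance of 0.0286 holds for 4 libraries against 4 and is larger for these smaller sets.

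**Figure D2:**
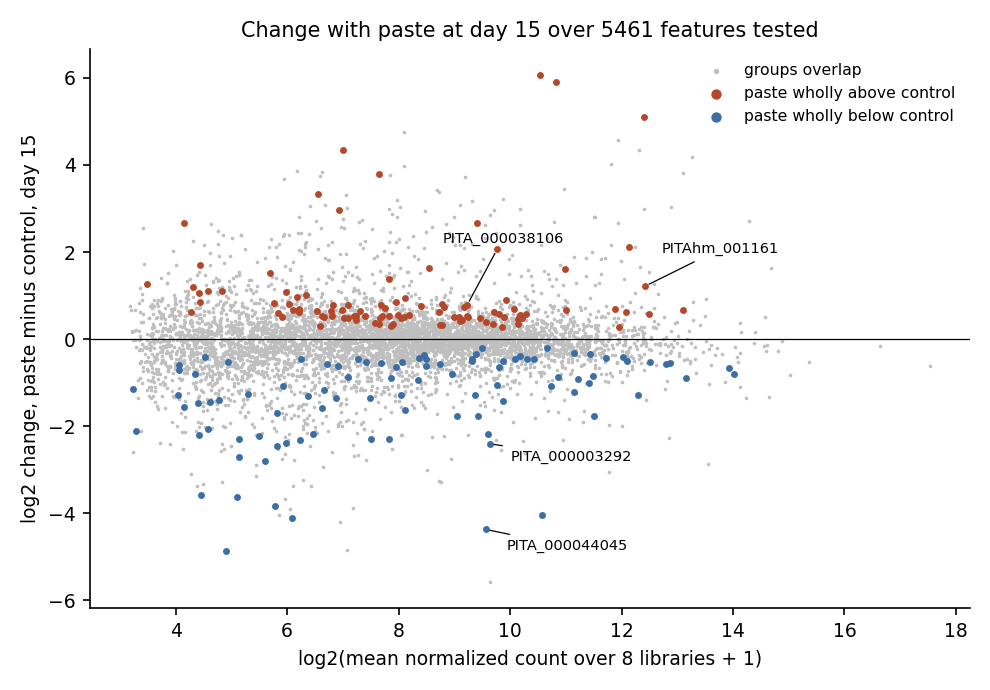
Log2 change with paste at day 15 (paste minus control) against log2(mean normalized count over the 8 libraries + 1) for the 5461 features tested. Red points are the 100 features with all paste libraries above all controls, blue points the 95 with all paste libraries below, and the 4 named features are labelled. No point passed the adjusted threshold.

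Of the features without overlap, 2 in each direction are described by name, those with the smallest unadjusted p among features with a mean normalized count of at least 50. The function of these 4 loci is not given in the files. Since they were picked for their separation at day 15, their day 15 values describe the choice, and the libraries of day 5 give values that the choice did not use, apart from the near-identical replicate 1.

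PITA_000003292 was the feature with the smallest p. Its normalized count was 239, 142, 323 and 267 in paste day 15 replicates 1 to 4, against 1031, 2357, 800 and 1201 in control day 15 replicates 1 to 4. All 4 paste libraries were below the lowest control, and the paste libraries that otherwise lay among the controls, replicates 2 and 4, were as low as the rest. The means were 243 ± 76 with paste and 1347 ± 693 in controls (SD, n = 4 each), which is -2.40 in log2 with an SE of 0.38 and an adjusted p of 0.593 in limma, or 5.29-fold. Leaving out each library in turn gave log2 changes from -2.61 to -2.09 and limma adjusted p from 0.441 to 0.92. At day 5 the normalized count of PITA_000003292 was 272, 162, 273 and 396 in the paste libraries, against 7336, 1903, 2974 and 4609 in the controls. The groups again did not overlap. In limma fitted on the 8 libraries of day 5 and adjusted over the same 5461 features, of which 1.76% passed, this feature fell with paste, by a log2 change of -3.82 (SE 0.43, adjusted p = 0.00606). PITA_000003292 still passed when paste day 5 replicate 1 was left out (-3.83 in log2, adjusted p = 0.0129 in limma), and it passed likewise without each of the 8 libraries of that day in turn. Paste libraries thus held 142 to 323 at day 15 and 162 to 396 at day 5, while controls held 800 to 2357 at day 15 and 1903 to 7336 at day 5. The paste effect differed between day 15 and day 5 by 1.41 in log2 (SE 0.61, adjusted p = 1 in limma), so a difference between the days was not shown.

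PITA_000044045 had the widest separation of the 4. Its normalized count was 16.5, 101, 42.9 and 44.7 in paste day 15 replicates 1 to 4, against 314, 1585, 3582 and 367 in the controls. The groups did not overlap, and the controls themselves spread over more than 10-fold. The means were 51.2 ± 35.4 with paste and 1462 ± 1530 in controls (SD, n = 4 each), which is -4.37 in log2 with an SE of 0.86 and an adjusted p of 0.716 in limma, or 20.7-fold. At day 5 it was 13, 57.6, 305 and 341 with paste, against 1449, 2168, 5450 and 513 in controls. Here too all paste libraries of day 5 lay below all controls of day 5, but the change of -4.16 in log2 (SE 1.11, adjusted p = 0.107 in limma) did not pass over the 5461 features. With paste day 5 replicate 1 left out, PITA_000044045 had an estimate of -3.23 in log2 at day 5 and again did not pass (adjusted p = 0.0751 in limma).

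PITAhm_001161 was an abundant feature with higher values under paste. Its normalized count was 8144, 7671, 9232 and 5734 in paste day 15 replicates 1 to 4, against 4315, 2639, 3540 and 2795 in the controls. All paste libraries were above the highest control. The means were 7695 ± 1462 with paste and 3322 ± 770 in controls (SD, n = 4 each), which is 1.22 in log2 with an SE of 0.23 and an adjusted p of 0.716 in limma, or 2.33-fold. At day 5 the paste libraries parted, replicates 1 and 2 being at 7950 and 10143, and replicates 3 and 4 at 3254 and 3214. The day 5 controls held 3384, 2911, 4305 and 4052, so replicates 3 and 4 lay within their range. The log2 change of PITAhm_001161 at day 5 was 0.57 (SE 0.40, adjusted p = 0.449 in limma), and 0.39 with paste day 5 replicate 1 left out (SE 0.42, adjusted p = 0.593 in limma). Over all 8 ways of leaving out 1 day 5 library it was 0.27 to 0.82, lowest without paste replicate 2 and highest without paste replicate 3 or 4, and none passed. The difference of the paste effects, day 15 minus day 5, was 0.64 (SE 0.48, adjusted p = 1 in limma).

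PITA_000038106 had the tightest groups. Its normalized count was 714, 661, 807 and 857 in paste day 15 replicates 1 to 4, against 465, 440, 476 and 380 in the controls. The lowest paste library was above the highest control by a margin larger than the spread of the controls. The means were 760 ± 88.4 with paste and 440 ± 43.1 in controls (SD, n = 4 each), which is 0.78 in log2 with an SE of 0.17 and an adjusted p of 0.733 in limma, or 1.72-fold. At day 5 it was 728, 667, 804 and 949 with paste, against 948, 567, 395 and 701 in controls. The day 5 groups overlapped, with a log2 change of 0.33 (SE 0.27, adjusted p = 0.515 in limma), or 0.36 with paste day 5 replicate 1 left out. With 1 library of day 5 left out it ranged from 0.11 without control replicate 3 to 0.53 without control replicate 1, and none passed. Values with paste ran over much the same span on both days, 661 to 857 at day 15 and 667 to 949 at day 5, while the controls were at 380 to 476 at day 15 and at 395 to 948 at day 5.

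**Figure D3:**
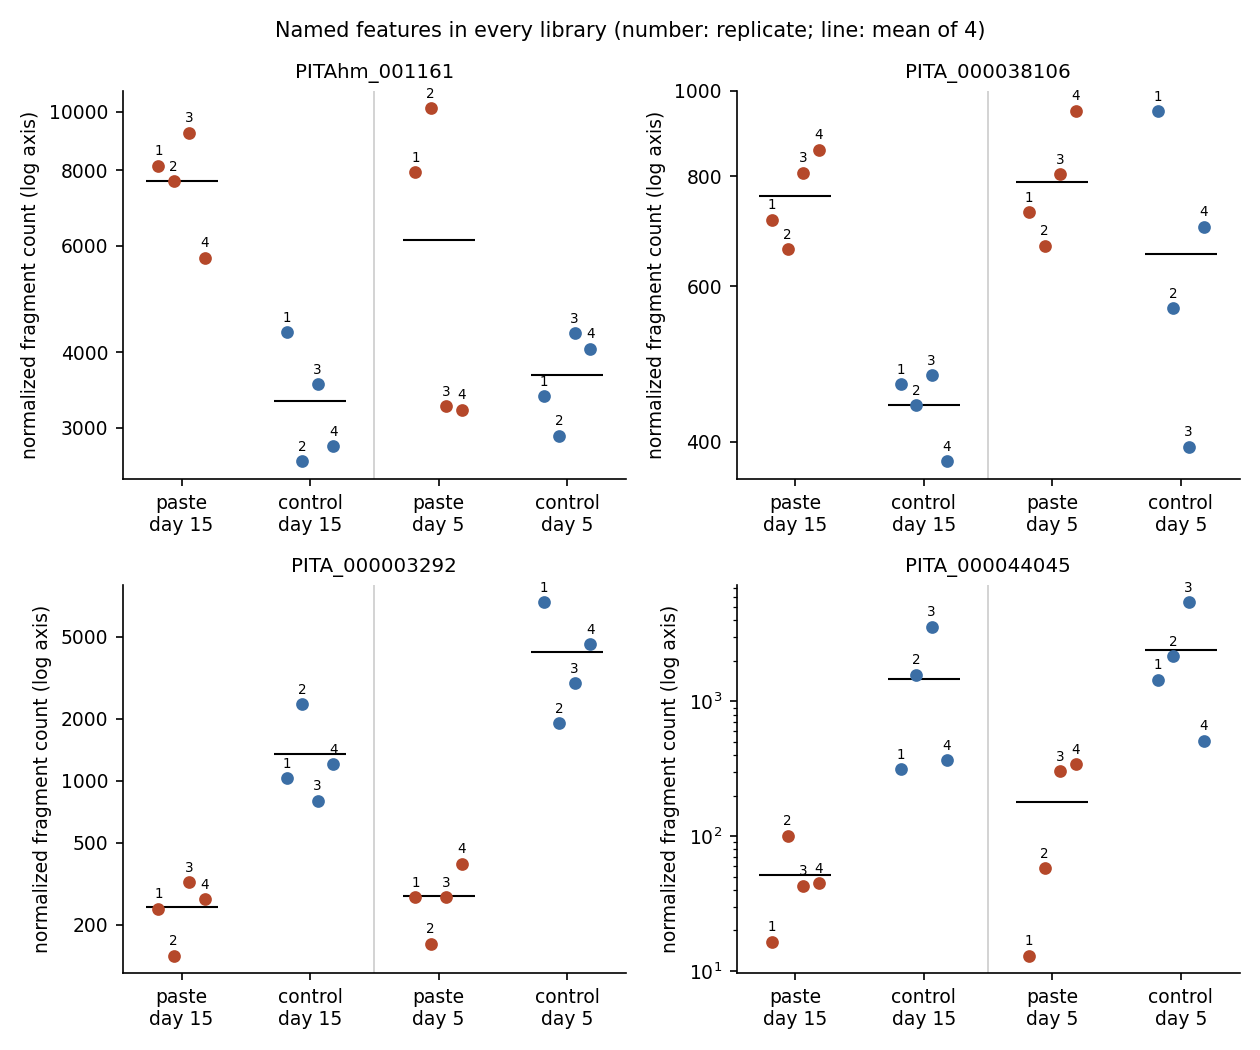
Normalized fragment count (log axis) of the 4 named features in every library of paste day 15, control day 15, paste day 5 and control day 5, with the replicate number at each point and a line at the mean of the 4 libraries. At day 15 paste and control do not overlap in any of the 4, by which they were chosen; at day 5 they separate for PITA_000003292 and PITA_000044045 and overlap for PITAhm_001161 and PITA_000038106.

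The paste libraries differed from one another in how far they left the control range. Replicate 3 lay above all 4 controls in 1908 features and below all 4 in 2134, 74% of the features tested in all. Replicate 1 lay outside the control range in 45.4%, replicate 4 in 41.8% and replicate 2 in 35.9%. A further control library would also leave the range of 4 others in many features. These shares therefore compare the paste libraries with one another and do not measure an effect of paste. Replicate 3 was the only paste library above the controls in 937 features and the only paste library below them in 1024. Replicate 2 was alone above in 439 and alone below in 294. Where exactly 3 of the 4 paste libraries were above all controls, in 390 features, it was replicate 2 that stayed behind in 182 and replicate 3 in 99. On the lower side 472 features had exactly 3 paste libraries below all controls, with replicate 2 staying behind in 245 and replicate 3 in 111. Without replicate 2, 540 of the 5461 features had an unadjusted p below 0.05 in limma, 231 higher and 309 lower with paste. With all 8 libraries 281 did, 5.15%. Adjusted calls in limma were still 0.

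**Figure D4:**
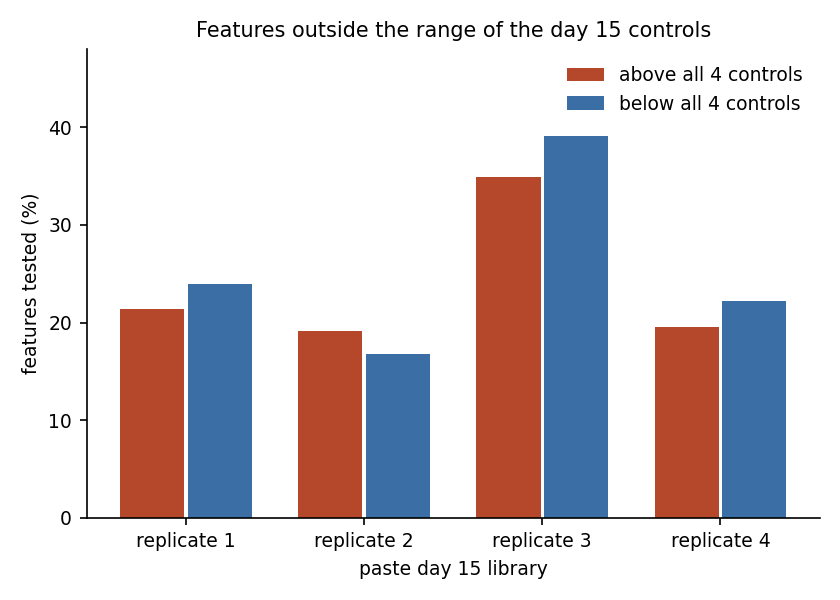
Share of the 5461 features (in %) in which each paste library of day 15 lay above all 4 controls of that day (red) or below all 4 (blue). Replicate 3 reaches 34.9% above and 39.1% below, and the other 3 paste libraries lie between 16.8% and 24%.

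The spread between libraries was wider with paste. The median SD of a feature's log2 values was 0.618 over the 4 paste libraries and 0.413 over the 4 controls, and the SD was larger with paste in 70.2% of features. Replicate 3 was the paste library farthest from the paste median in 61.6% of features. Without it the median SD with paste was 0.351, below that of the 4 controls, and the SD was larger with paste in 42% of features. That sets 3 paste libraries, the farthest left out, against all 4 controls. Among the controls, replicate 1 was farthest from the control median in 41.3% of features. Without it the median SD of the controls was 0.32, below the 0.351 of paste without replicate 3. At day 5 the median SD was 0.524 with paste and 0.35 in controls.

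The features without overlap at day 15 were followed in the libraries of day 5, which share no control with day 15. Of the 100 features higher with paste at day 15, 41 also had all paste libraries above all controls at day 5, 41% of the day 15 list and 11.3% of the day 5 list, against 6.63% of all features tested. Of the 95 lower features, 41 did so on the lower side, 43.2% of the day 15 list and 11.2% of the day 5 list, against 6.7% of all features. None of the 195 separated in the opposite direction at day 5. The estimate at day 5 had the same sign for 98 of the 100 higher and 91 of the 95 lower features, where 46.2% of all features had a positive and 53.8% a negative estimate. At day 5 the higher list had a median log2 change of 0.57 and the lower list of -0.80, against -0.06 over all features. In the day 5 fit 9 of the higher and 7 of the lower features passed an adjusted p below 0.05 (limma), beside 1.76% of all features. These calls used all libraries and were not counted again without the near-identical replicate 1 or without paste day 15 replicate 3.

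These shares, signs and medians rested in part on the libraries described above. With paste replicate 1 of both days left out, 40.3% of 144 higher and 39.7% of 146 lower features separated at both days, beside 11.6% and 12.4% of all features at day 5. Without paste day 15 replicate 3 alone the shares were 21.1% of 199 and 22.8% of 206, the day 5 estimate had the same sign for 81.4% and 83.5%, and the median log2 changes at day 5 were 0.36 and -0.45. With replicate 1 of both days and replicate 3 of day 15 left out, only replicates 2 and 4 stood for paste at day 15. The shares were then 15.7% and 17%, near the 11.6% and 12.4% of all features. In the opposite direction at day 5, 20 of the 394 higher and 13 of the 394 lower features separated. Of all features, 12.4% separated lower and 11.6% higher at day 5. The day 5 estimate then had the same sign for 58.9% of the higher and 64.5% of the lower features, beside 46% and 54% of all features, and the median log2 changes at day 5 were 0.10 and -0.22. A direct test of the difference between the paste effects of day 15 and day 5 called 0 of the 5461 features in limma over all 16 libraries, with 52 at an unadjusted p below 0.05, 0.952% of those tested. Without paste day 15 replicate 3 that number was 210, still with 0 adjusted calls in limma. The count of 0 gives no ground for calling the effects of the days alike.

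**Figure D5:**
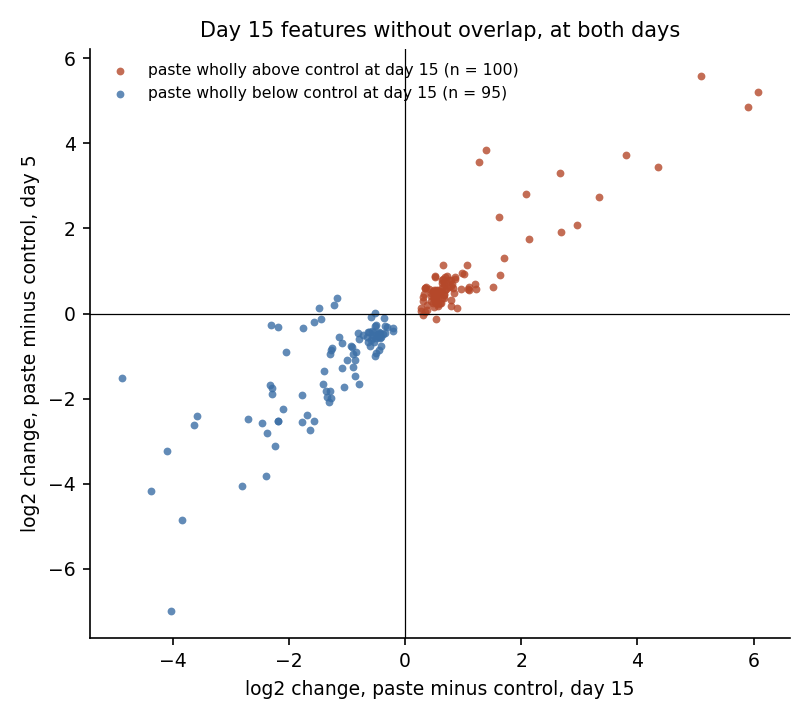
Log2 change with paste (paste minus control) at day 15 on the horizontal axis and at day 5 on the vertical axis for the 195 features whose groups did not overlap at day 15, red for the 100 higher and blue for the 95 lower with paste. All but 2 of the red points lie above 0 and all but 4 of the blue points below 0 on the day 5 axis; the plot includes paste replicate 1 of both days and paste day 15 replicate 3, and without replicate 1 of both days and that replicate 3 the same sign was held by 58.9% of the higher and 64.5% of the lower features.

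Low and abundant features alike were among those without overlap. Features were put into 4 classes of like size by their mean. In the class with the lowest means, 8.11 to 59.9, 3.81% of features had an unadjusted p below 0.05 and 2.78% did not overlap. In the class with the highest means, from 669 upward, the shares were 6.45% and 4.62%. The median standard error was 0.581 in the lowest class and 0.287 in the highest, so the abundant features carried the narrower intervals. In the lowest class 12 higher and 40 lower features had an unadjusted p below 0.05, a lean that was not tested. The 10 features with the highest means, 24679 to 189358, had log2 changes from -1.32 to 1.64, overlapped between the groups in every case, and had unadjusted p-values in limma of 0.0695 or more (smallest adjusted p = 0.804).

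By identifier, 3.11% of 3727 PITA_ features, 4.74% of 1309 PITAhm_ features and 4% of 425 transcript-named features did not overlap between paste and control. PITA_ features counted 49 higher and 67 lower with paste among these, and PITAhm_ features 43 higher and 19 lower. Their median log2 changes over all features tested were -0.08 and 0.07. The difference between these classes was not tested.

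Few features were listed at 0 in 1 group alone. Of all 8949 features, tested or not, 5887 were above 0 in all 4 paste libraries and 6102 in all 4 controls, and 5594 were above 0 in all 8. Listed at 0 in all 4 paste libraries and above 0 in all 4 controls were 4 features, and 4 showed the reverse. None of the 8 had a normalized count of 10 or more in all 4 libraries of the other group. Single values reached 556 in a control among those at 0 with paste, and 147 in a paste library among those at 0 in controls.

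No library-wide measure passed a test between the groups. Features above 0 numbered 6690 ± 231 with paste and 6755 ± 152 in controls (SD, n = 4 each, exact two-sided permutation test, p = 0.686). The 10 most abundant features of a library held 12.1% ± 1.58 of the signal with paste and 15.2% ± 5.18 in controls (SD, n = 4 each, exact permutation p = 0.286). The difference, -3.03 percentage points, was -0.488 without control replicate 1, whose most abundant feature alone took 11.3%. Features below the filter held 0.259% ± 0.118 with paste and 0.208% ± 0.0264 in controls (SD, n = 4 each, exact permutation p = 0.714). Adjusted over the 3 measures, each of these p-values from the exact permutation test became 0.714, and the smallest p that 4 libraries against 4 allow is 0.0286. A single measure at that smallest p would still not pass after adjustment over the 3, so these tests could detect little.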

How the data were processed

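Per the labels' protocols, total RNA was depleted of ribosomal RNA and sequenced as single 125-base reads on an Illumina HiSeq. Cufflinks 2.1.1, HISAT2 2.0.4, Trimmomatic 0.32 and FastQC are named in the submitters' processing notes. Not given in the sources used here: the build, annotation, strand setting and handling of reads with several matches; near-identical or overlapping features may thus share fragments. What the authors deposited is a signal of estimated fragments per feature over a library size factor, going by the file headers and values. Low values lay near whole multiples of 1 step (within 0.1 step for 96.6% to 98% of values up to 20 steps), and a library's sum over its step gives its estimated fragments. As other values were fractional, no count model was run.

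Groups and replicate numbers came from the titles. The day 15 fit used limma 3.58.1 in R 4.3.3 on log2(value + 1) with 2 group means, an intensity trend and robust variances, 6 residual degrees of freedom, two-sided p-values and Benjamini-Hochberg adjustment over the 5461 features. Day 5 was fitted likewise on the same features, and the difference of the paste effects on all 16 libraries. Abundance classes were cut on the mean over the 8 libraries. Exact permutation tests used SciPy 1.17.1. The fit was run on simulated data with 200 changed features. Those values were drawn independently, with no outlying and no near-identical library, so the run does not speak for the fit under such libraries. Pairs of libraries were compared over features whose fragments summed to 20 or more, as the median squared deviation from the expected split over its counting variance, where 1 stands for counting noise alone.

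The libraries, lists and tests were chosen with earlier results of these data known. Named features were, in each direction, up to 2 with a mean of at least 50 and no overlap at day 15, those past the threshold first and then by unadjusted p. Alternatives were filters, pseudocounts of 0.5 and 4, 2 rescalings, quality weights, the variance model, all 16 libraries, a replicate block and left-out libraries.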

Additional observations from a re-analysis of the deposited data

Results flagged for a closer look

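Of 28 sets of 4 values, each 1 measure over the libraries of 1 group, 4 held a value far from the other 3. For a single set chance gives about 1 in 20, but the sets share libraries and were not independent. Paste day 15 replicate 3 had 0.435% of its signal in features below the filter, against 0.18% to 0.212% in the other paste libraries. Control day 15 replicate 3 had 0.169% there, against 0.218% to 0.226% in the other controls. Control day 15 replicate 1 was the shallowest, at 3324244 estimated fragments beside 4548742 to 4798066 for the other controls. In the same control library the most abundant feature took 11.3% of the signal, against 3.07% to 3.59%. The part of these libraries in the results was not tested beyond leaving each out.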

How the results depend on the processing

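The count of 0 adjusted calls at day 15 held in limma under each of the 20 alternatives, with a smallest adjusted p from 0.154 to 0.924, and the count of 0 for the difference of the paste effects held under each of its 9. The 4 named features kept their direction at day 15 under all alternatives and passed under none.

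Counts at an unadjusted p below 0.05 depended on the fit. Of the 5461 features they were 472 (199 higher, 273 lower) with library quality weights and 500 (239 higher, 261 lower) with all 16 libraries. The main fit gave 281, or 5.15%. The replicate block gave 172, 51 of them higher, and 0 adjusted calls. Replicate numbers do not tie paste to control trees in the labels. The deviations from the group means correlated at -0.383 to -0.092 for same-numbered libraries and at -0.427 to 0.468 for the others. With so few libraries these values do not settle whether libraries were paired. Leaving out 1 library gave 179 to 540 in all, 56 to 231 higher and 105 to 309 lower, with the total lowest without paste replicate 1 and highest without paste replicate 2. For the difference of the paste effects, the unadjusted count was 210 without paste replicate 3, against 52.

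Of the 5461 features, those without overlap numbered 144 to 282 higher and 146 to 340 lower with 1 library left out. Without paste replicates 1 and 3 they numbered 394 and 394. Separation by chance is more frequent with fewer libraries, so these counts do not compare in size with those of all 8. The shares of these features that also separated at day 5, an alternative chosen after seeing the data, were 21.1% to 37.1% of the higher and 22.8% to 40.8% of the lower with 1 library of day 15 left out, lowest without paste replicate 3. They were 15.7% and 17% without paste replicate 1 of both days and paste day 15 replicate 3.

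Among library measures, the difference in features above 0, paste minus control, was -128 to 48.1 and in percent of the signal below the filter -0.0074 to 0.0776 with 1 library left out. Both changed sign without paste replicate 3, at 48.1 and -0.0074. The difference in percent of the signal in the 10 most abundant features was -4.16 to -0.488, nearest to 0 without control replicate 1. With 3 libraries against 4 the exact test has little room to pass. The median SE was 0.581 in the least abundant class and 0.287 in the most abundant, and the part of depth in this was not tested.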
